A study of Mus musculus with 2 samples.

Results

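Slc12a1, Kcnj1, Bsnd, Umod and Egf were followed in single cell RNA sequencing (scRNAseq) of mouse kidney, as genes of the thick ascending limb (TAL) of the loop of Henle. They were chosen by symbol, with earlier results of these data known, and are 5 of the 32285 genes listed for each library. Their level was described in every cell type of an uninjured and an ischemic kidney.

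The study was about interleukin-1 signaling of myeloid cells in acute kidney injury, and these libraries hold cells of whole kidneys after unilateral ischemia. In the surgery that the paper describes for its injury model the contralateral kidney was removed, whereas here it was kept as the control. The control library came from the uninjured contralateral kidney and the ischemia library from a kidney given 27 min of ischemia and 24 h of reperfusion, both of male wildtype C57BL/6J mice aged 19 weeks. The control is therefore the other kidney after a unilateral injury and not a kidney of an animal without surgery. Each group is 1 library of 1 kidney, and whether both kidneys came from the same mouse was not established. No test between the groups was possible, no value could be set against the spread between kidneys, and every interval given here covers counting error only.

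The TAL takes up salt without water. Slc12a1 encodes the Na-K-2Cl cotransporter NKCC2, the entry step for NaCl at the luminal membrane and the target of loop diuretics. Kcnj1 encodes the potassium channel ROMK, which returns potassium to the lumen and is also used for potassium secretion further down the nephron. Bsnd encodes barttin, the subunit that the basolateral chloride channels need. Umod encodes uromodulin, the main protein of normal urine, and Egf encodes the precursor of epidermal growth factor, which is shed into urine as well.

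The genes lie on 5 chromosomes of the GRCm38 (mm10) build that the deposited counts use, and all are annotated as protein coding. Slc12a1 (ENSMUSG00000027202) spans chr2:125152505-125230002 on the plus strand, with up to 27 exons in 1 transcript. Kcnj1 (ENSMUSG00000041248) spans chr9:32372493-32399197 on the plus strand and has no transcript with more than 2 exons. Bsnd (ENSMUSG00000025418) spans chr4:106483456-106492283 on the minus strand with 4 exons. Umod (ENSMUSG00000030963) spans chr7:119462711-119479282 on the minus strand with up to 11 exons, and Egf (ENSMUSG00000028017) spans chr3:129677565-129755316 on the minus strand with up to 24.

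RefSeq start windows on GRCm38.p6, from 250 bases before to 50 bases after the start, were at hand for 4 of the 5 genes. They are shown so that the start regions of genes compared throughout can be read side by side. The windows are chr2:125152350-125152649 for Slc12a1 and chr9:32393735-32394034 for Kcnj1 on the plus strand, and chr7:119479213-119479512 for Umod and chr3:129755273-129755572 for Egf on the minus strand. The Kcnj1 window belongs to a start 21492 bases into the gene. Each is written 5′ to 3′ on the gene's strand, and capitals mark a match to a searched motif.
Slc12a1: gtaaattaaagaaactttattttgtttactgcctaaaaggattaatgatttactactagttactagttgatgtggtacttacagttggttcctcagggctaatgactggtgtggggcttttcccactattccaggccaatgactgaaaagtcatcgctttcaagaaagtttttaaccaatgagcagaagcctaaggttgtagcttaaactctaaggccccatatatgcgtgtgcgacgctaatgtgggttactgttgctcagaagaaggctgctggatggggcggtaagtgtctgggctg
Kcnj1: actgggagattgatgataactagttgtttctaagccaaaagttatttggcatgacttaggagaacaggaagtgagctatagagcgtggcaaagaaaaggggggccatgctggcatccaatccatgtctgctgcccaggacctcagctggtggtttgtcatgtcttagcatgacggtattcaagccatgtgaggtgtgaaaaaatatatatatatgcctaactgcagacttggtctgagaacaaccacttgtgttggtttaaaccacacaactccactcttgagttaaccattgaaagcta
Umod: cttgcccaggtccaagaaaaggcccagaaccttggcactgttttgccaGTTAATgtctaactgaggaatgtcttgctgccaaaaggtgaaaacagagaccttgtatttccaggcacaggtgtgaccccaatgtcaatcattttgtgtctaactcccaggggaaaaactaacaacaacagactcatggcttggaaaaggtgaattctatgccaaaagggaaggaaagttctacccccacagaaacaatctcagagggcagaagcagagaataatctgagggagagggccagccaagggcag
Egf: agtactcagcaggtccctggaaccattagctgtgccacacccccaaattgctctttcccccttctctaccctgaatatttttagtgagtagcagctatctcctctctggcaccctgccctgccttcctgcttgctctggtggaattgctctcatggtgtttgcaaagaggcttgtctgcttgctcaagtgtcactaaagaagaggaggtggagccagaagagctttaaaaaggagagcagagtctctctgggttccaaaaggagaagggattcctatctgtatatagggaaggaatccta

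The motifs searched on both strands were GTTAAT (a homeodomain factor core), AAGGTCA (estrogen-related receptors), TATAAA (a core promoter box) and TGANTCA (AP-1). The 1 match was GTTAAT at 202 bases before the start of Umod. Of 32851 RefSeq windows of the same length, 7.10% held GTTAAT, 4.72% AAGGTCA, 13.6% TATAAA and 7.81% TGANTCA. A match is only a run of letters, and the absence of one says nothing of a factor.

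After filtering, 12586 control and 13116 ischemia cells were kept, with a median of 3839 and 2138.5 unique molecular identifiers (UMIs, 1 per captured RNA molecule) per cell. Of their barcodes, 58 occurred in both libraries, and 5 TAL-like cells carried one of these. Clusters built without the 5 genes gave 18 groups. All but 3 of them took a name from marker genes, as 13 cell types called X-like, since the names were rebuilt from markers and can differ from those of the study. The largest unnamed cluster was shallow, with a median of 836 UMIs, and held 36.0% of control and 44.8% of ischemia cells.

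The TAL-like cluster held 498 control and 491 ischemia cells, with a median of 19945 and 24497 UMIs per cell. Its 9 markers summed to 4112 UMIs per 1000000 UMIs of the group's cells (CPM) in control and 941 CPM in ischemia cells. In the control library 7 of the 9 were higher in TAL-like cells than in any other named type, and in the ischemia library 5 of 9 were. The 5 were Cldn16, Cldn19, Tmem207, Casr and Wfdc15b. The marker sum alone did not set the segment apart in the ischemia library, where IC-like cells reached 1171 CPM, of which Ptger3 gave 619 CPM. Proximal tubule markers summed to 942 and 363 CPM in TAL-like cells against 11506 and 5969 CPM in PT-like cells. The largest sum of markers of another nephron segment was that of the distal tubule (DCT-CNT) list, 2067 and 1059.6 CPM, which in the ischemia library exceeded the sum of the TAL markers. In DCT-CNT-like cells that list summed to 25172 and 15019.5 CPM. Markers of endothelial, stromal, podocyte and blood cells summed to at most 28.7 CPM for any list in TAL-like cells of either library, with the B cell marker Cd79a and the T cell marker Cd8a at 0.

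Free RNA in droplets gives UMIs of these genes in cells that do not make them, and endothelial (EC-like) cells served as that background. For Slc12a1, EC-like cells of the control library held 41.3 CPM and those of the ischemia library 2.90 CPM. Their level was 22.0 and 6.10 CPM for Kcnj1, 3.81 and 0.763 CPM for Bsnd, 177 and 100.1 CPM for Umod, and 44.5 and 3.05 CPM for Egf. The background was lower in the ischemia library for all 5 genes, and least so for Umod. It was uneven among cells. In the control library 5 of 904 EC-like cells held 31.1% of the Slc12a1, 33.8% of the Egf and 21.9% of the Umod UMIs. For Kcnj1 this share was 15.5%, and for Bsnd 36.8% of 19 UMIs. EC-like cells had medians of 3803 and 4255 UMIs per cell against 19945 and 24497 in TAL-like cells. PT-like cells, at 26444 and 36047.5 UMIs, held 13.5 and 1.42 CPM of Slc12a1. Folds over EC-like cells are not corrected for depth, so a level near or below theirs in deeper cells need not be background.

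**Figure D1:**
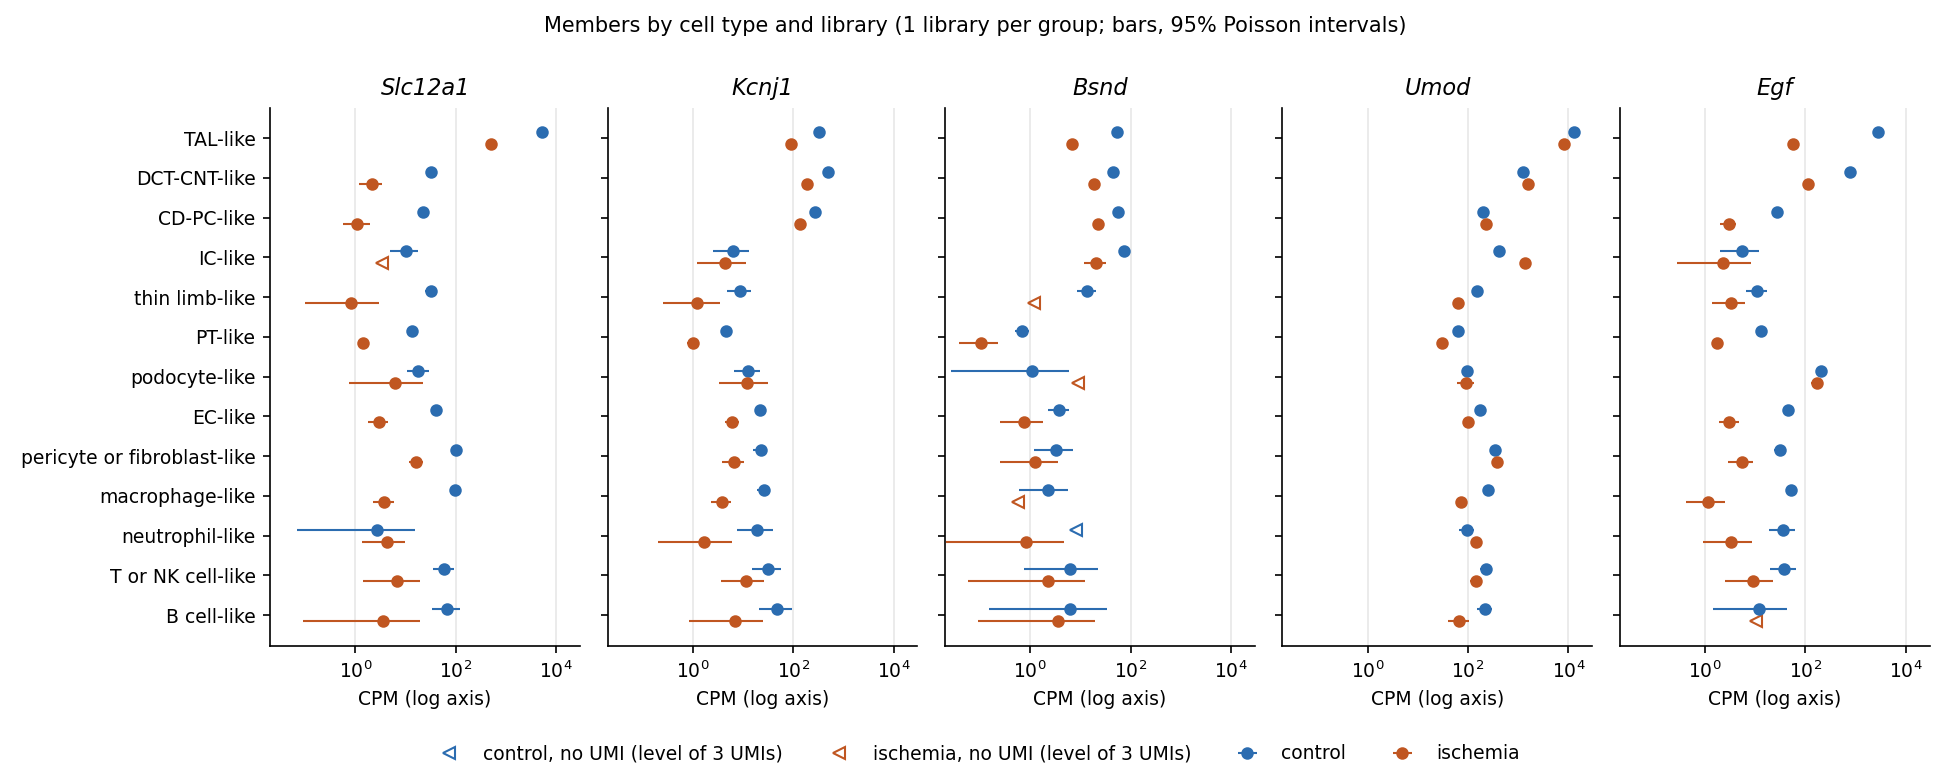
CPM (log axis) of each gene in 13 named cell types of the control (blue) and ischemia (orange) library, with 95% Poisson intervals, 1 library per group. Open triangles mark types with no UMI, drawn at the level of 3 UMIs. Slc12a1 stands far above background in TAL-like cells only, while Kcnj1 and Bsnd continue into distal tubule and collecting duct and Egf appears in DCT-CNT-like and podocyte-like cells too.

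Slc12a1 was found almost entirely in TAL-like cells of both libraries. TAL-like cells reached 5194 CPM in control and 496 CPM in ischemia, which was 126-fold and 171-fold over EC-like cells of the same library. They held 85.6% of all Slc12a1 UMIs of the control and 90.2% of the ischemia library. DCT-CNT-like cells, the next segment, held 32.2 and 2.10 CPM, below the EC-like level in the control and within counting error of it in the ischemia library. The next named types in the control library were pericyte or fibroblast-like cells with 99.1 CPM and macrophage-like cells with 98.2 CPM, whose intervals overlapped. Of these UMIs, 80.6% and 77.8% lay in 5 cells of each type, and 1 pericyte or fibroblast-like cell held 135 of 186. In the ischemia library these types had 16.4 and 3.75 CPM. An unnamed cluster in which TAL and distal tubule markers were mixed held 1142 and 93.1 CPM and 9.33% and 4.98% of the UMIs.

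Kcnj1 was spread over 3 segments, and its highest level was not in the TAL. DCT-CNT-like cells, of the distal convoluted and connecting tubule, held 488 CPM in control and 190.2 CPM in ischemia. TAL-like cells followed with 331 and 89.5 CPM, and CD-PC-like cells, named for the principal cells of the collecting duct, had 276 and 134 CPM. The TAL level therefore lay between the others in the control and below both in the ischemia library, with no overlap of counting intervals between the 3. IC-like (intercalated) cells were at 6.36 and 4.47 CPM, below or within the EC-like level.

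Bsnd was at a low level along the whole distal nephron. The control library had 74.5 CPM in IC-like, 55.2 CPM in CD-PC-like, 53.5 CPM in TAL-like and 44.6 CPM in DCT-CNT-like cells. The intervals of CD-PC-like and TAL-like cells overlapped (50.6 to 60.2 and 49.1 to 58.1 CPM). The ischemia library had 22.9 CPM in CD-PC-like, 20.1 CPM in IC-like, 19.0 CPM in DCT-CNT-like and 6.92 CPM in TAL-like cells, so TAL-like cells came last of the 4. The intervals of the other 3 overlapped in the ischemia library, and that of TAL-like cells (5.54 to 8.53 CPM) lay below them. In thin limb-like cells Bsnd was 13.4 CPM in the control, with all 23 UMIs in 3 of 89 cells, and was not detected in the ischemia library, where 3 UMIs would be 1.21 CPM.

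Umod was highest in TAL-like cells of both libraries, with 12971 CPM in control and 8311 CPM in ischemia. DCT-CNT-like cells had 1251 and 1554 CPM, which was 7.06-fold and 15.5-fold over EC-like cells. IC-like cells had 408 and 1383 CPM and CD-PC-like cells 201 and 229 CPM. In these 3 types Slc12a1 did not exceed the EC-like level in either library. Pericyte or fibroblast-like cells had 344 and 375 CPM of Umod, but 71.8% and 84.9% of those UMIs lay in 5 cells.

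Egf was distributed differently. TAL-like cells led in the control library with 2794 CPM, ahead of DCT-CNT-like cells with 762 CPM and podocyte-like cells with 206 CPM. In the ischemia library the order was the opposite, with 170.2 CPM in podocyte-like, 110.2 CPM in DCT-CNT-like and 57.2 CPM in TAL-like cells. All 3 types stood over the EC-like level in both libraries. TAL-like cells held 66.1% of the Egf UMIs of the control library and 35.1% of the ischemia library.

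Within TAL-like cells, 4 of the 5 genes were at least 2-fold lower after ischemia. The same was true of 7.6% of the 11236 genes with 50 or more UMIs there, while 7.93% were at least 2-fold higher, and the median ratio over all of them was 1.07. Slc12a1 was 10.5-fold lower (95% interval 10.2 to 10.7), from 53726 UMIs in control and 6243 in ischemia cells. Only 21 of the 11236 genes had a lower ratio. The cotransporter was therefore near the bottom of the whole list of ratios.

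Kcnj1 was 3.69-fold lower (3.45 to 3.95) on 3420 and 1126 UMIs, with 193 genes below it. Bsnd was 7.73-fold lower (6.15 to 9.80), but on only 553 and 87 UMIs, with 38 genes below it. The intervals of the 3 transport genes did not overlap, with Slc12a1 differing most and Kcnj1 least.

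The secreted proteins lay at opposite ends. Egf was 48.9-fold lower (45.4 to 52.7), from 28905 UMIs in control to 719 in ischemia cells, and 4 genes had a lower ratio. Umod was 1.56-fold lower (1.55 to 1.57) on 134176 and 104511 UMIs, did not reach 2-fold, and had 1590 genes below it. As a share of the UMIs of all 5 genes in TAL-like cells, Umod made up 60.8% in control and 92.7% in ischemia, and Egf 13.1% and 0.638%. These shares follow counts of 3′ tags that are not scaled for differences in capture, so no order of abundance between genes was read from them.

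**Figure D2:**
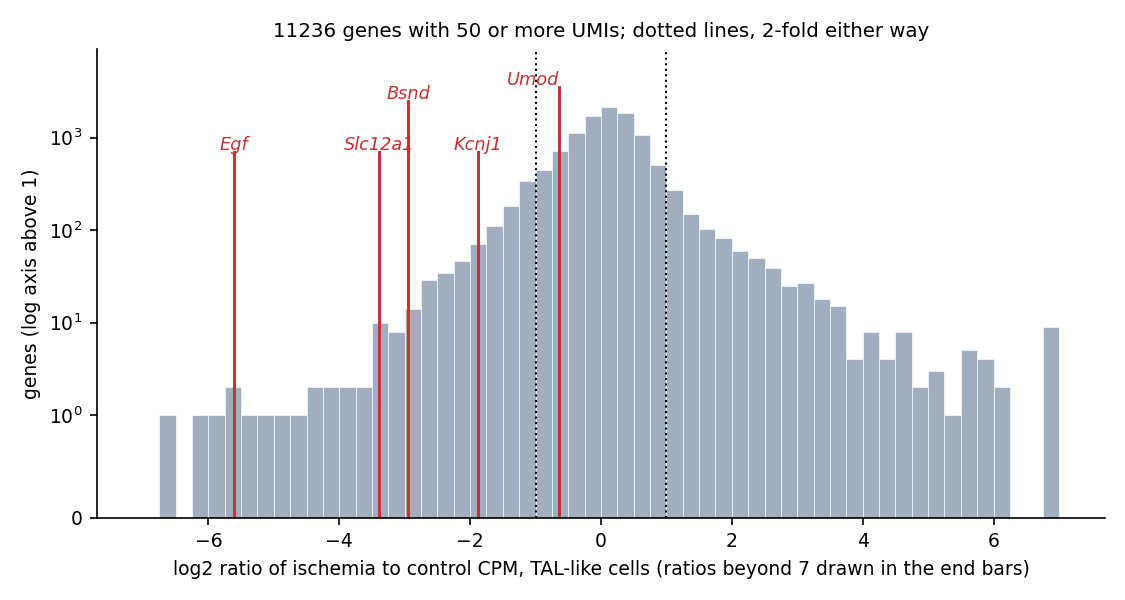
Number of genes (log axis above 1) by log2 ratio of ischemia to control CPM in TAL-like cells, for 11236 genes with 50 or more UMIs, with red lines at the 5 genes and dotted lines at 2-fold. Egf, Slc12a1, Bsnd and Kcnj1 lie in the lower tail and Umod inside the dotted lines.

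Several other measures moved between the libraries in the same cells. The median mitochondrial share of a TAL-like cell was 30.9% in control and 24.97% in ischemia. A list of 12 tubule injury genes summed to 12374 CPM in control and 84261 CPM in ischemia, of which Spp1, encoding osteopontin, gave 11123 and 71413 CPM. CPM are shares of a total, so a gene group with a larger share lowers the CPM of the others. With that list taken out of the total, the 5 genes were 9.70-fold (Slc12a1), 3.42-fold (Kcnj1), 7.16-fold (Bsnd), 1.45-fold (Umod) and 45.3-fold (Egf) lower. With cells limited to 25% mitochondrial UMIs, which left 125 control and 247 ischemia cells, the 4 genes were still over 2-fold lower and Umod was 1.22-fold lower.

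Cell by cell, the difference was a shift of the whole population for Slc12a1 and, less completely, Egf. Slc12a1 had a median of 5200.2 CPM per cell in control (middle 50% of cells, 3814 to 6650.5) and 319.5 CPM in ischemia (141 to 590.3). Of the 491 ischemia cells, 0 reached the control median and 15 reached the level of the lowest 10% of control cells, 2058 CPM. Egf had a median of 1649 CPM in control (452 to 4233) and 20.0 CPM in ischemia (0 to 62.9), and again 0 ischemia cells reached the control median, while 94 reached the level of the lowest 10% of control cells. Control cells were themselves uneven in Egf, which ranged from 80.0 CPM at the lowest to 6550 CPM at the highest 10%.

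The ranges of the other 3 genes overlapped more. For Umod the medians were 11970 and 6797 CPM, and 97 of 491 ischemia cells reached the control median. Kcnj1 had medians of 312 and 59.1 CPM, with 14 ischemia cells at or over the control median. Bsnd was too sparse for a cell-by-cell reading, since the median control cell held 1 UMI and 85.9% of ischemia cells held 0.

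**Figure D3:**
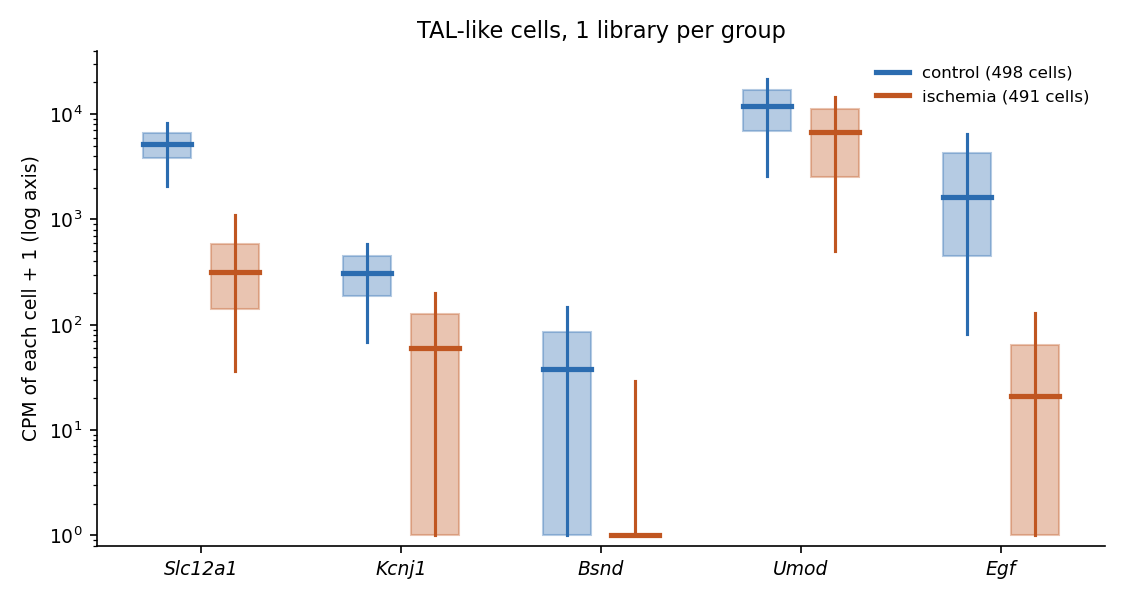
CPM of each TAL-like cell plus 1 (log axis) for the 5 genes in control (498 cells, blue) and ischemia (491 cells, orange). Thick lines are medians, boxes the middle 50% of cells and thin lines the 10th to 90th percentile. The boxes of Slc12a1, Kcnj1 and Egf do not overlap between libraries and those of Umod and Bsnd do.

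As a share of cells with at least 1 UMI, Slc12a1 was detected in 99.6% of control and 90.4% of ischemia TAL-like cells, at the depths above. EC-like cells, with medians of 3803 and 4255 UMIs, had it in 14.9% and 1.73%. To set depth aside, each cell was thinned to 1000 UMIs, which left out 1 control and 2 ischemia TAL-like cells and 20 and 55 EC-like cells. The thinned shares in TAL-like cells were 94.97% and 30.5% for Slc12a1 (95% intervals 92.7 to 96.7 and 26.4 to 34.8), against 4.86% and 0.610% in EC-like cells.

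After thinning, 68.2% of control and 4.50% of ischemia TAL-like cells held an Egf UMI, against 5.09% and 0.610% in EC-like cells. Kcnj1 gave 24.7% and 8.38% against 2.94% and 0.813%. For Umod the shares were 95.8% and 87.1% against 18.4% and 13.7%. Bsnd was found in 5.84% and 0.204% against 0.679% and 0.102%, where the ischemia values rest on 1 cell each and do not separate TAL-like from EC-like cells. The depth of thinning sets these shares. At 3000 UMIs they were 97.9% and 58.1% for Slc12a1, 61.4% and 20.3% for Kcnj1 and 15.03% and 2.42% for Bsnd. The same depth gave 99.4% and 95.6% for Umod and 83.3% and 14.1% for Egf. At both depths Umod was thus found in most TAL-like cells of both libraries and Egf in most cells of the control library only.

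A finer clustering divided the mixed unnamed cluster and placed a part of it with the TAL. This shallower TAL-like cluster held 380 control and 392 ischemia cells at a median of 4356 UMIs, of which 3 were among the TAL-like cells above. There Slc12a1 was 2454 and 165 CPM (14.9-fold lower), Kcnj1 239.9 and 55.6 CPM (4.32-fold), Bsnd 43.5 and 7.25 CPM (6.00-fold) and Egf 1752 and 41.6 CPM (42.1-fold). Umod was 9235 and 4146 CPM, 2.23-fold lower and so past 2-fold in these cells. Egf, Slc12a1, Bsnd, Kcnj1 and Umod came in this order by size of the difference in both sets of cells, though the Bsnd interval was wide in the shallow cluster (ratio 0.0900 to 0.288).

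In the distal tubule and collecting duct the summed levels of Kcnj1 and Bsnd, and of Egf where it stood over background, were lower after ischemia too. The summed level of Umod was higher, but the typical cell did not show this in DCT-CNT-like and CD-PC-like cells. In DCT-CNT-like cells all 5 genes passed the UMI minimum and 4 were at least 2-fold lower, where 5.08% of 10653 genes were. Egf was 6.91-fold lower (6.43 to 7.43), Kcnj1 2.57-fold (2.42 to 2.73) and Bsnd 2.34-fold (1.93 to 2.85), the last within counting error of 2-fold. The fourth was Slc12a1, which did not exceed the EC-like level in these cells. The Umod sum was 1.24-fold higher (ratio interval 1.21 to 1.28), while its median per cell was 560.0 CPM in control and 543.7 CPM in ischemia. The 90th percentile of Umod was 2807 and 3844 CPM, and after thinning 51.5% and 44.7% of cells held a UMI, so the higher sum lay in the cells with most Umod. Leaving out the 5 cells of each library with the most UMIs of the gene moved these values to 7.87-fold, 2.74-fold and 2.56-fold lower and 1.19-fold higher, in the same order. The TAL marker sum in these cells was 1502 and 750 CPM.

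The CD-PC-like cluster had the intercalated cell gene Aqp6 among its leading genes beside principal cell markers. The finer clustering named a cluster of 98 and 88 cells, led by Aqp6, Atp6v1g3 and Kit, as IC-like. It left 356 and 308 CD-PC-like cells, with Kcnj1 at 309 and 151 CPM and Bsnd at 49.6 and 21.5 CPM. The main CD-PC-like cluster may thus mix both cell types, while the main IC-like cluster was led by Slc26a4. In the main CD-PC-like cluster 4 of 5 genes were at least 2-fold lower, against 4.52% of 11698 genes. Kcnj1 was 2.06-fold (1.93 to 2.19) and Bsnd 2.42-fold lower (2.07 to 2.82), so the Kcnj1 call lay within counting error of 2-fold. Slc12a1 and Egf were lower as well, but did not exceed the EC-like level in either library. Umod had 201 CPM in control, 1.13-fold over EC-like cells, and 229 CPM in ischemia, a ratio of 1.14 (1.08 to 1.21). The 5 highest cells held 26.3% and 28.6% of these UMIs. Its median per cell was lower in ischemia, 59.0 and 40.2 CPM, as were the shares of cells with a UMI, 64.98% and 58.9%, or 14.6% and 11.6% after thinning. The direction of Umod in CD-PC-like cells therefore depended on the measure. The ratios of Kcnj1 and Bsnd were both closer to 1 in CD-PC-like than in TAL-like cells. They were 0.486 against 0.271 for Kcnj1 and 0.414 against 0.129 for Bsnd, and the reason was not tested.

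In IC-like cells, of which there were 58 and 45, 2 of the 5 genes passed the UMI minimum and the other 3 did not exceed the EC-like level. Bsnd was 3.70-fold lower (2.20 to 6.56) on 82 and 18 UMIs, where 3.95% of 4988 genes were at least 2-fold lower. Umod was 3.39-fold higher (3.04 to 3.79), where 5.73% of genes were at least 2-fold higher. Its median per cell was higher as well, 195 and 841 CPM. Slc12a1 in these cells was 10.0 CPM in control and not detected in ischemia, where 3 UMIs would be 3.35 CPM. At the finer clustering, which counted 156 and 134 cells as IC-like, Umod was 287 and 663 CPM, 2.31-fold higher. The 5 highest cells held 39.4% and 43.7% of the Umod UMIs, and without them the level was 291 and 1024 CPM, 3.52-fold higher. Without the 5 highest cells of each library Bsnd was 5.04-fold lower. TAL markers moved with Umod here, since their sum in IC-like cells was 928 and 1171 CPM, with Cldn16, Cldn19 and Tmem207 at 1.12 CPM or less in both libraries, and their part in the result was not tested.

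Podocyte-like cells (88 control, 61 ischemia) were the only one of the 3 types with Egf well over background in which it did not differ beyond counting error. Their level was 206 CPM in control on 194 UMIs and 170.2 CPM in ischemia on 56 UMIs, a ratio of 0.828 (0.604 to 1.12). The signal was uneven, with 46.9% and 48.2% of the UMIs in the 5 highest cells, and without these cells the levels were 136 and 111 CPM. With all cells, the levels were 4.62-fold and 55.8-fold over EC-like cells. After thinning, 12.3% and 13.2% of cells held an Egf UMI, against 5.09% and 0.610% of EC-like cells, at medians of 4720 and 2407 UMIs per cell.

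TAL-like cells fell into 4 sub-clusters, built again without the 5 genes. Sub-cluster 1 (172 control, 186 ischemia cells) was led by Sgcz, Ptgds and Nccrp1, sub-cluster 2 (170 and 183) by Tmem52b, Cxcl10 and Nrxn3, and sub-cluster 3 (126 and 90) by Robo2, Nos1 and Thsd4. Nos1 encodes the neuronal nitric oxide synthase known from the macula densa, and Robo2 was on the same list of macula densa genes. Sub-cluster 4 (30 and 32) was led by proximal tubule genes such as Slc5a12 and Slc34a1, that is, transcripts of another segment.

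In the control library Egf varied most among the first 3 sub-clusters, and Kcnj1 and Slc12a1 least. There Slc12a1 was 5942, 4706 and 5742 CPM and Kcnj1 359, 322 and 355 CPM in sub-clusters 1 to 3. Egf was 767, 4153 and 3542 CPM in these same 3, so that the first was the lowest. Umod followed the same split, with 9454, 15194 and 15572 CPM. The sub-cluster led by Sgcz and Ptgds was thus the lowest of the 3 in both secreted proteins and the highest in the cotransporter.

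Each of the 5 genes was lower in the ischemia library in each of the 4 sub-clusters. Slc12a1 was 13.3-fold, 10.6-fold, 7.16-fold and 13.5-fold lower in sub-clusters 1 to 4. Its ischemia level was highest in sub-cluster 3, the one led by Robo2 and Nos1, with 801 CPM against 448 and 444 CPM in sub-clusters 1 and 2. Egf was 26.2-fold, 58.1-fold, 45.7-fold and 37.6-fold lower. For Umod the values were 1.42-fold, 1.48-fold, 1.94-fold and 1.52-fold. Without the 62 cells of sub-cluster 4, the TAL-like values were 10.4-fold (Slc12a1), 3.66-fold (Kcnj1), 7.57-fold (Bsnd), 1.57-fold (Umod) and 49.8-fold (Egf) lower.

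**Figure D4:**
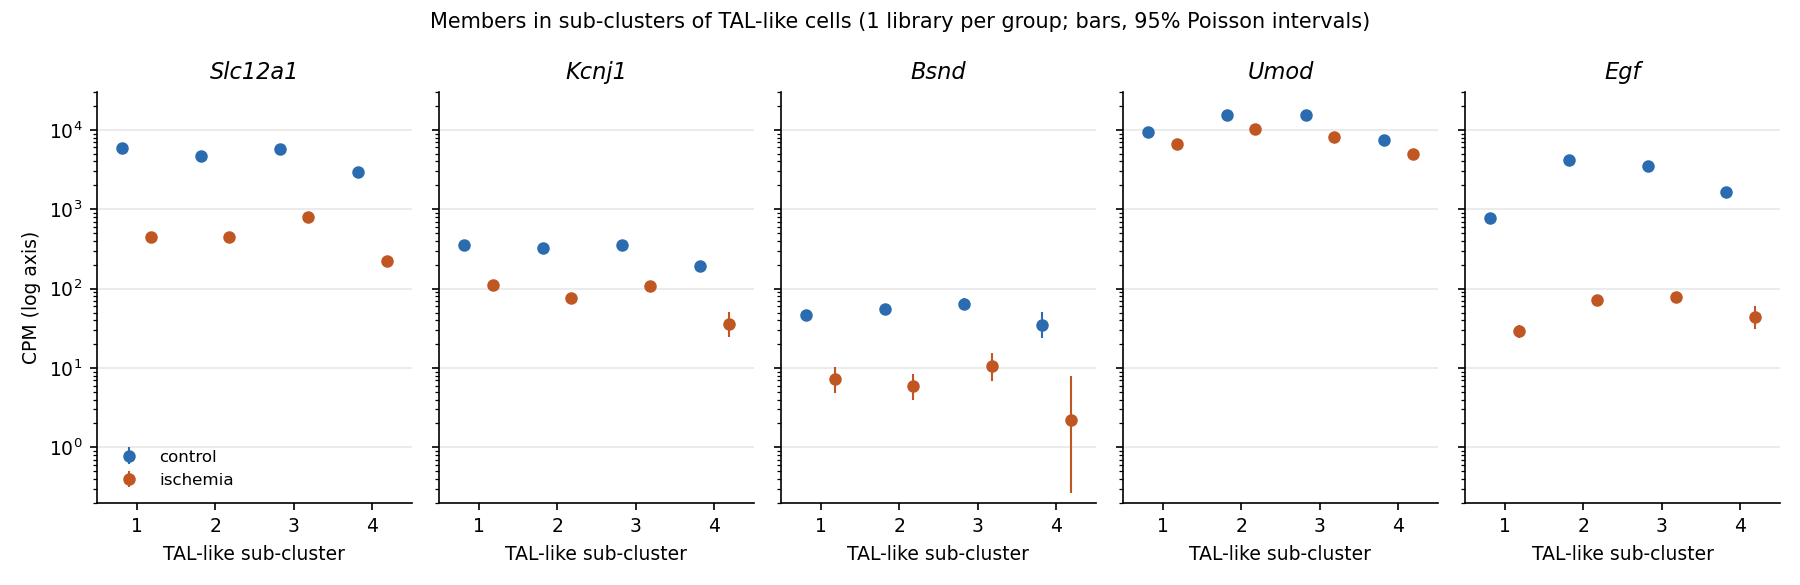
CPM (log axis) of the 5 genes in 4 sub-clusters of TAL-like cells in control (blue) and ischemia (orange), with 95% Poisson intervals, 1 library per group. Each gene is lower after ischemia in each sub-cluster, and Egf is lowest in sub-cluster 1 of both libraries. In the ischemia library the Egf intervals of sub-clusters 1 and 4 overlap.

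Across the cells of a library, the genes went together only in part. The Spearman correlation of CPM per cell over 498 control and 491 ischemia TAL-like cells was 0.558 and 0.349 for Umod with Egf and 0.482 and 0.346 for Slc12a1 with Kcnj1. Slc12a1 with Umod gave 0.172 and 0.181. With the summed tubule injury genes, Umod gave 0.238 in control and 0.563 in ischemia cells, whereas Slc12a1 gave -0.370 and -0.0615 and Egf -0.0729 and 0.0839. That sum was mostly Spp1, which gave 11123 of 12374 CPM in control and 71413 of 84261 CPM in ischemia cells. These values therefore say little of the other injury genes. Umod also went with the UMIs per cell, at 0.291 and 0.403. These points share their library and their total UMIs, the sparse genes are bounded by depth, and the values are descriptions.

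The wider TAL program was described with 41 genes in 4 lists, all of which passed the UMI minimum. Of these, 18 were at least 2-fold lower, 2 at least 2-fold higher and 21 neither, with a median ratio of 0.605 against 1.07 over all genes. Over all 11236 genes, 7.6% were lower and 7.93% higher by this rule, and the counts of each list below are to be read beside these shares. Some of these genes, such as Cldn10, Cldn19 and Ptger3, were also markers used to name the cells.

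Among 10 ion transport genes 6 were lower and 4 neither. Atp1b1, a subunit of the sodium pump, was 3765 and 1431 CPM, 2.63-fold lower. The basolateral potassium channel Kcnj10 was 4.22-fold lower, and its partner Kcnj16 was 364 and 422 CPM, the sodium-proton exchanger Slc9a3 218 CPM in both libraries, the channel Kcnj15 2.27-fold lower, and the pump regulator Fxyd2 4184 and 3496 CPM. The Slc12a1 difference was larger than that of any of these 10.

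Of 5 paracellular genes 3 were lower, 1 higher and 1 neither. Tmem207 was 77.6 and 7.16 CPM (10.8-fold lower), Cldn10, which forms the sodium path between cells, 604 and 147 CPM (4.12-fold), and Cldn19 244 and 100.4 CPM (2.43-fold). Cldn16, which works with Cldn19 in magnesium and calcium uptake, was 82.0 and 41.1 CPM, 1.99-fold lower and just short of 2-fold. Cldn14, which blocks that path, was the exception, with 1.84 CPM on 19 UMIs in control and 84.8 CPM on 1066 UMIs in ischemia, 46.2-fold higher (29.4 to 77.0).

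Among 16 regulators 7 were lower, 1 higher and 8 neither. The calcium-sensing receptor Casr was 163 and 56.0 CPM (2.91-fold lower), the prostaglandin E2 receptor Ptger3 623 and 176 CPM (3.54-fold) and the glucagon receptor Gcgr 53.0 and 13.8 CPM (3.83-fold). Avpr2, the vasopressin receptor, was 9.83-fold lower on 97 and 12 UMIs. Of the kinases upstream of the cotransporter, Wnk4 was 139 and 36.1 CPM (3.84-fold lower) and Wnk1 209 and 95.4 CPM (2.19-fold), and Klhl3, which directs their degradation, was 2.25-fold lower. Stk39, the kinase SPAK that acts on NKCC2, was 232 and 182 CPM and its relative Oxsr1 18.3 and 20.0 CPM, neither of them 2-fold apart. The parathyroid hormone receptor Pth1r was 229 and 465 CPM, 2.03-fold higher.

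Of 10 transcription factors and uromodulin processing genes 2 were lower and 8 neither. Ppargc1a, a coactivator of mitochondrial genes, was 390.3 and 87.3 CPM (4.47-fold lower), and the nuclear receptor Esrrb 74.2 and 19.5 CPM (3.81-fold). Pou3f3 had 102 and 81.9 CPM, Tfap2b 179.9 and 156 CPM, and Esrrg 826 and 519.7 CPM. Hpn, the protease that releases uromodulin into the urine, was 113 and 63.6 CPM, 1.78-fold lower.

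**Figure D5:**
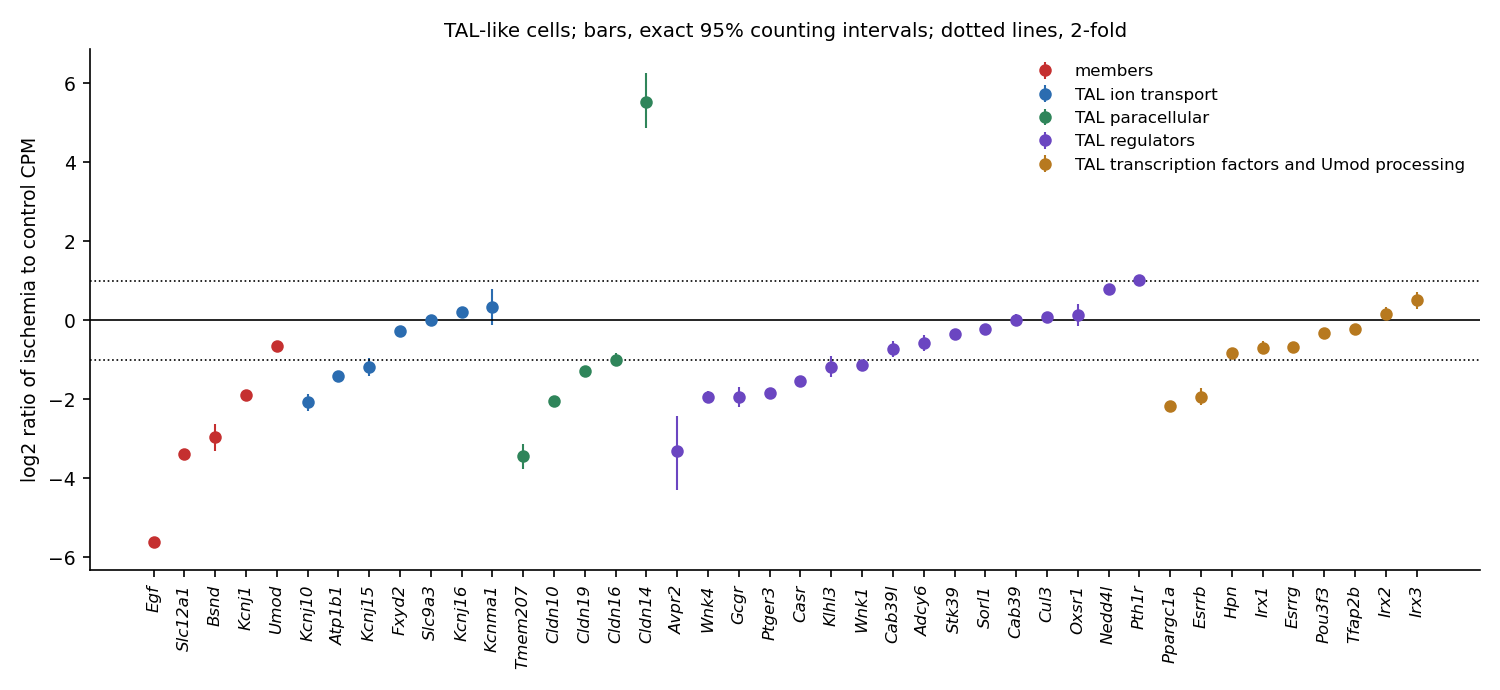
log2 ratio of ischemia to control CPM in TAL-like cells for the 5 genes and the genes of 4 TAL lists that are reported by name, with exact 95% counting intervals and dotted lines at 2-fold. Egf has the lowest ratio shown and Cldn14 the highest, and all but Ppargc1a and Esrrb of the transcription factor and processing genes shown lie between the dotted lines.

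Injury and macula densa genes in the same cells were measured beside them. Of 12 tubule injury genes 10 passed the UMI minimum, and 7 of them were at least 2-fold higher and 0 lower, where 7.93% of all 11236 genes were higher. Lcn2, which encodes the injury marker NGAL, was 427 and 5269 CPM, Clu, encoding clusterin, 292 and 6569 CPM, and Havcr1, encoding KIM-1, 0.580 and 34.4 CPM. The injury genes were not set against the EC-like background, and sub-cluster 4 of the TAL-like cells was led by proximal tubule genes. Whether the Havcr1 UMIs, 6 and 433, were made in TAL cells was therefore not tested. Of 5 macula densa genes 4 passed, with Pappa2 6.48-fold lower, Ptgs2 3.62-fold higher, and Nos1 and Robo2 neither. The lower Slc12a1 and Egf and the higher Lcn2 and Spp1 were therefore measured in the same class of cells.

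The genes most like each of the 5 were sought over 13 named types in both libraries, 26 points, among 12479 genes, by Pearson correlation of log2(CPM + 1). For Slc12a1 they were Egfl6 (0.867), Tmem207 (0.829), Nccrp1 (0.804), Slc5a1 (0.772) and Cldn16 (0.724). For Umod they were Gp2 (0.938), Casr (0.852), Kng2 (0.851), Tmem72 (0.826) and Nol3 (0.822). Gp2 encodes a protein related to uromodulin.

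Kcnj1 and Egf shared Wfdc15b, Mfsd4a and Prom2 among their nearest genes. Kcnj1 had Vstm2a (0.853), Wfdc15b (0.852), Mfsd4a (0.851), Prom2 (0.848) and Tmem52b (0.837). Egf had Wfdc15b (0.810), Mfsd4a (0.774), Mturn (0.768), Uroc1 (0.737) and Prom2 (0.731). Bsnd had Tspan1 (0.932), Tmem213 (0.903), Atp6v1b1 (0.901), Ankrd9 (0.892) and Tmem72 (0.892), where Atp6v1b1 encodes a proton pump subunit. Among the 5 genes themselves the highest value was 0.698, between Kcnj1 and Egf, and the lowest 0.331, between Bsnd and Egf. The points share 2 libraries and a common background, and the values are descriptions.

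Nccrp1, among the genes most like Slc12a1, was 135 CPM in control and 2.47 CPM in ischemia TAL-like cells. Its ratio was 0.0182 against 0.0205 for Egf, but no counting interval was computed for Nccrp1, so their order is not settled. Wfdc15b, near both Kcnj1 and Egf, was 1703 and 170.2 CPM. Slc5a1, a glucose transporter that was also among those genes, had 195 and 158 CPM.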

How the data were processed

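Single cells of 1 control and 1 ischemic mouse kidney were measured. The files that the authors deposited are raw UMI counts of each gene in each barcode, made with Cell Ranger 7.0.0 per the submitters' processing notes, on mm10 as genome build, and columns of other samples numbered 0. A barcode was kept if it had 200 or more genes, between 500 and 150000 UMIs, and a mitochondrial share of 55% or less, 25702 of 30367. Cells were clustered in Seurat 5.3.0 (R 4.3.3) after anchor integration, on 2000 variable genes without the 5 genes, 30 principal components and resolution 0.3. A cluster was named where at least 3 markers were detected, an own marker stood among its top 10 genes, and its list led the next by 0.75 log2. That margin was set after the clusters were seen. Doublets were left in, since Scrublet (scanpy 1.11.5) called 0 in each library, so it had not worked.

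UMIs were summed per library and type and scaled to 1000000 UMIs (CPM). Intervals are 95%, Poisson for a level, exact conditional binomial for a ratio and Clopper-Pearson for a share, and describe counting error alone. Where no UMI was found, 3 UMIs were taken as the limit. Genes with 50 or more UMIs over both libraries were described as lower or higher at 2-fold. With 1 library per group no test was made and no p-value is given. The ratio and thinning steps were run on simulated data drawn from the same counting models that they assume. Those data held no spread between kidneys, doublets or free RNA, so the run checks the computation only. The 5 genes and the gene lists were chosen with earlier results of these data known. The genes named are the 5, those of the fixed lists, the 5 genes most like each in distribution among genes with at least 500 UMIs, and the top genes of sub-clusters. Some members of these lists are counted but not reported here by name. Genes named after their values were seen are the examples picked out of the lists. Alternatives changed the cell filters, clustering, cell type rule, doublets and total. Alternatives to the TAL-like ratios that were added after seeing the data are named as such below.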

Additional observations from a re-analysis of the deposited data

Results flagged for a closer look

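The summed level of Umod differed in direction between segments. It was lower after ischemia in TAL-like cells, and higher in DCT-CNT-like cells at 1.24 times the control CPM, in CD-PC-like cells at 1.14 times and in IC-like cells at 3.39 times. With 1 library per group the difference between the segments was not tested. The median per cell did not follow the sum in DCT-CNT-like cells (560.0 CPM in control and 543.7 CPM in ischemia) and CD-PC-like cells (59.0 and 40.2 CPM), and did in IC-like cells (195 and 841 CPM). The EC-like background of Umod was 177 CPM in control and 100.1 CPM in ischemia. CD-PC-like cells of the control library were 1.13-fold over it, at a median of 16162 UMIs per cell against 3803 in EC-like cells. This fold, like those that follow, is not corrected for depth. In the ischemia library the 3 types were 15.5-fold (DCT-CNT-like), 2.29-fold (CD-PC-like) and 13.8-fold (IC-like) over background.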

How the results depend on the processing

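The ratio of ischemia to control CPM in TAL-like cells kept its direction for all 5 genes, and its side of 2-fold, under every alternative run on TAL-like cells as a whole. The shallower of the 2 TAL-like clusters at resolution 0.6, taken alone, had Umod past 2-fold at a ratio of 0.449. When the main TAL-like cells were sub-clustered at resolution 0.5, a shallow sub-cluster (56 control, 66 ischemia cells) had Umod at 0.452. Its median was 3967 UMIs per cell, and the other sub-clusters stayed short of 2-fold for Umod. The ratios of the main analysis were 0.0956 (Slc12a1), 0.271 (Kcnj1), 0.129 (Bsnd), 0.641 (Umod) and 0.0205 (Egf), and those that moved beyond their counting interval follow. A limit of 25% mitochondrial UMIs gave 0.0998 for Slc12a1 and 0.817 for Umod, the largest shift of Umod. Clustering without integration gave 0.107 for Slc12a1, 0.683 for Umod and 0.0228 for Egf, and resolution 0.6 gave 0.630 for Umod. A gate on TAL marker UMIs in place of clusters gave 0.300 for Kcnj1, 0.670 for Umod and 0.0256 for Egf. The mean of the CPM of each cell gave 0.0916 for Slc12a1 and 0.599 for Umod. Scaling without mitochondrial genes gave 0.0877 for Slc12a1, 0.248 for Kcnj1, 0.588 for Umod and 0.0188 for Egf, and scaling without the 5 genes gave 0.633 for Umod. Of the alternatives chosen after seeing the data, removing the top 8% of doublet scores gave 0.626 for Umod. Scaling without the tubule injury list gave 0.103 for Slc12a1, 0.292 for Kcnj1, 0.691 for Umod and 0.0221 for Egf. The cause of these shifts was not tested. Leaving out barcodes found in both libraries and leaving out sub-cluster 4 were also chosen after seeing the data. Neither moved a ratio beyond its counting interval. Without the shared barcodes the ratios were 0.0957 (Slc12a1), 0.270 (Kcnj1), 0.130 (Bsnd), 0.641 (Umod) and 0.0206 (Egf). Of the other values, 30 moved and 0 reversed, among them the thinned shares at 3000 UMIs, such as 58.1% against 30.5% for Slc12a1 in ischemia cells. The planned run without doublets called by Scrublet was not made, as it called 0. No paired analysis was possible because each group is 1 library. Depth limits Bsnd most, with 87 UMIs in ischemia TAL-like cells.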

Other observations

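Barcodes that failed the filters, 2524 of the control library and 2141 of the ischemia library, with a median mitochondrial share of 70.4% and 73.4%, also held the 5 genes. Slc12a1 was 184 CPM in control and 20.2 CPM in ischemia barcodes. Egf was 100.5 and 8.51 CPM, Kcnj1 41.4 and 10.6 CPM, Bsnd 6.00 and 1.97 CPM, and Umod 434 and 205 CPM. All 5 were lower in the ischemia library there too, and Umod was the gene with the ratio closest to 1.

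Over all kept cells of a library, with no use of cell types, Slc12a1 was 504 CPM in control and 53.8 CPM in ischemia, 9.37-fold lower. Egf was 22.0-fold, Bsnd 3.43-fold, Kcnj1 2.87-fold and Umod 1.38-fold lower. These values carry the share of each cell type as well as the level within it, which cannot be told apart in a sum over cells.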
